A study of Mus musculus with 3 samples.

Results

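The genes described here are 10 that carry, store or regulate lipid: the apolipoprotein genes Apod and Apoe, the cholesterol efflux pump gene Abca1, the lipase gene Lpl, the fatty acid receptor gene Cd36, the fatty acid binding protein genes Fabp4 and Fabp5, the lipid droplet coat gene Plin2, and the adipogenic regulators Pparg and Cebpa. They were taken by name from 19938 genes with a value, and they were selected on their log2 levels in these same 3 arrays and the differences between them, so those values are described without a test and support nothing beyond themselves. All 10 had a value, and 9 reached the level filter, a log2 signal of 6.63 in at least 1 array, as did 11808 genes in all. That filter is the median of all values. In each pair of arrays 36.1% to 55.1% of those 11808 genes had exactly equal values, so a tie is not read as a steady level.

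RNA came from 3 lines of mouse forestomach fibroblasts that were positive for the marker FSP1 (gene S100a4), and each line was read on 1 Affymetrix Mouse Gene 1.0 ST array. Normal forestomach was the source of the wild-type line and of the Tgfbr2/Smad4 cKO line, whereas the source of the Tgfbr2 cKO line was a squamous cell carcinoma of that organ. Tgfbr2 encodes the type II TGF-beta receptor, Smad4 encodes the SMAD shared by TGF-beta and BMP signaling, and cKO stands for conditional knockout. All lines were low-passage cultures in medium with serum, which itself carries lipoproteins and fatty acids, and were harvested before confluency. The labels give a mix of C57BL6 and BALBc mice, male or female, for every line, with no age and no number of animals behind a line, and the Cre driver is not given in the sources used here.

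Cells move lipid in 3 connected ways. Apolipoproteins and ABC pumps carry cholesterol and phospholipid out of the cell, lipases and surface receptors bring fatty acids in, and binding proteins and droplet coat proteins hold fatty acids inside or pack them as triglyceride. In mesenchymal cells the nuclear receptor PPAR-gamma and the factor C/EBP-alpha drive the adipocyte program, and fibroblast cultures can hold cells able to enter it.

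There was 1 array for each group, so differences could not be set against replicate spread, p-values are absent, and precision is limited by the small number of arrays. The Tgfbr2 cKO and wild-type lines also differ in tissue of origin. The sex-linked genes set the Tgfbr2/Smad4 cKO array apart: Xist had a log2 level of 9.44 there against 5.33 in wild type and 5.35 in Tgfbr2 cKO, and the Y-linked gene Eif2s3y had 5.01 against 10.12 and 10.00. Genotype and sex pattern cannot be told apart in comparisons with the Tgfbr2/Smad4 cKO array, nor genotype and tissue of origin in those with the Tgfbr2 cKO array. Levels of Tgfbr2 and Smad4 differed by at most 0.04 on the log2 scale between any arrays, which does not check the labels because a transcript value also covers exons that a knockout leaves in place. All 11 fibroblast markers were above the filter in these arrays, with S100a4 at 13.18, 13.16 and 12.71 in wild type, then Tgfbr2 cKO, then Tgfbr2/Smad4 cKO. They did not stay level in Tgfbr2/Smad4 cKO against wild type. There 2 of the 11 were at least 2-fold higher, Pdgfra by 1.40 and Lum by 1.21 on the log2 scale. Thy1 was 5.13-fold lower. In this comparison a 2-fold gap was reached upward by 1.22% of all 11808 genes and downward by 2.18%.

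Apod stood apart from the other lipid genes, and its high level lay in the Tgfbr2 cKO array alone. Apolipoprotein D is a secreted carrier of the lipocalin fold that binds arachidonic acid and other small hydrophobic molecules. Its gene had a log2 level of 7.73 in wild type, 9.15 in Tgfbr2 cKO and 7.48 in Tgfbr2/Smad4 cKO. The Tgfbr2 cKO array was 2.69-fold above wild type, and the Tgfbr2/Smad4 cKO array was 3.20-fold below Tgfbr2 cKO, while the wild-type and Tgfbr2/Smad4 cKO arrays lay 0.25 apart on the log2 scale. Apod was the 1 gene of the 9 past the 2-fold rule in the comparison of Tgfbr2 cKO with wild type, where 0.0254% of the 11808 genes were at least 2-fold higher, 0.00847% lower and 0.0339% either. It was also the 1 gene of the 9 past that rule between the Tgfbr2/Smad4 cKO and Tgfbr2 cKO arrays, where 2.25% of genes were at least 2-fold lower, 1.32% higher and 3.57% either. None of the 9 passed it between Tgfbr2/Smad4 cKO and wild type, where 3.40% of genes did, 1.22% on the higher and 2.18% on the lower side. In the first comparison 0 of 11808 genes had a larger difference than Apod, and in the comparison of the knockout lines 133 did. Both of these comparisons use the same Tgfbr2 cKO array, so they are not separate observations of its high level.

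**Figure D1:**
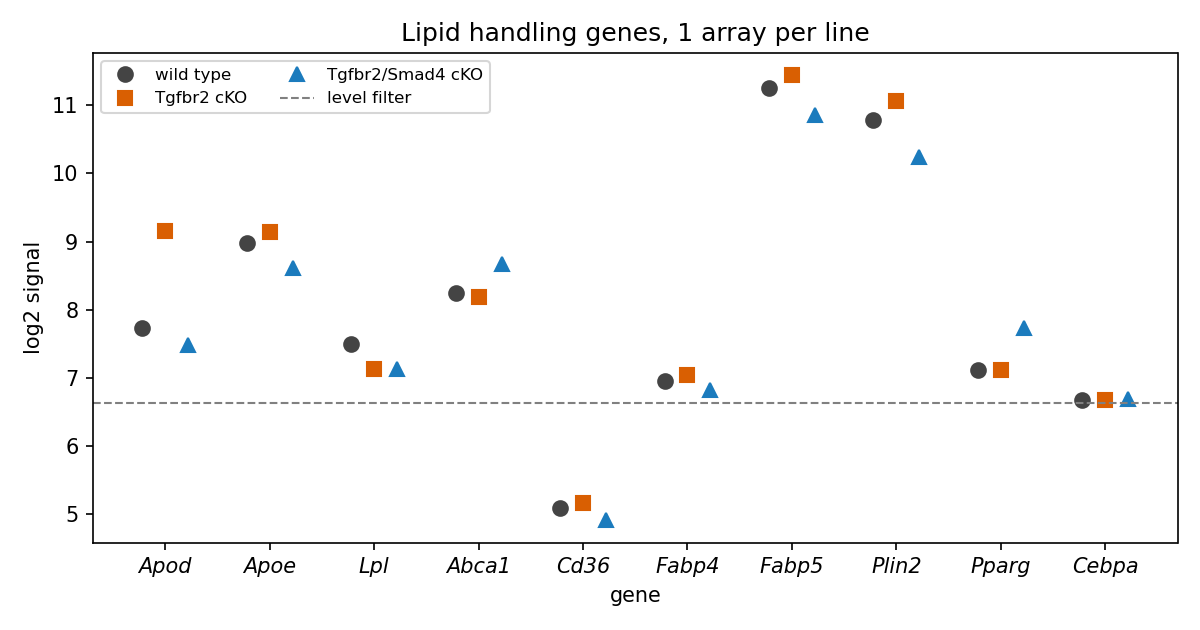
Log2 signal (vertical axis) of the 10 lipid handling genes (horizontal axis) in the 3 arrays, 1 point per array, with the level filter as a dashed line. Apod is at 9.15 in the Tgfbr2 cKO array and at 7.73 and 7.48 in the others, while Cd36 lies under the filter in every array.

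The Apod promoter is shown because that gene carries the largest difference of the set, and the Plin2 promoter because Plin2, described below, has the next largest difference in the same array order. Each window runs from 250 bases before to 50 bases after a RefSeq start, on the strand of the gene, build GRCm38.p6, at chr16:31314759-31315058 for Apod and chr4:86670010-86670309 for Plin2, both on the minus strand. Capitals mark matches on either strand to the nuclear receptor hexamer AGGTCA or the E-box CACGTG.
Apod: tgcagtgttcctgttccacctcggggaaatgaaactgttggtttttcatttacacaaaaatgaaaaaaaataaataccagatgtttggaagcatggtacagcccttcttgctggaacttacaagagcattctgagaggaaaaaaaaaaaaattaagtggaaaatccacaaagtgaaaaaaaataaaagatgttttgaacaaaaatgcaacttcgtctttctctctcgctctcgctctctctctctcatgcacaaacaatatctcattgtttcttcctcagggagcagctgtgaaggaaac
Plin2: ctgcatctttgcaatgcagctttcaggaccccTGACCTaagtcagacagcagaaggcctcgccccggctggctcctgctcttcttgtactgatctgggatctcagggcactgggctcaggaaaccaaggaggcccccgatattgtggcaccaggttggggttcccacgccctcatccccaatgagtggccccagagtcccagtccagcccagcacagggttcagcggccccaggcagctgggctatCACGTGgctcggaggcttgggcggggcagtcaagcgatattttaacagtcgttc
Neither motif is present in the Apod window. The Plin2 window holds the hexamer on its opposite strand, starting 218 bases before the start, and the E-box starting 4 bases before it. Of 32851 promoter windows of this length, 16.3% held the hexamer and 7.15% the E-box. Windows were found for 7 of the 10 genes. The hexamer also lay in the windows of Cd36 and Pparg and the E-box in that of Abca1, and these matches describe letters only. Also searched on both strands, as exact letters only, were 3 longer motifs. These were the hexamer repeated directly with 1 base between (an exact form of the PPAR response element, and so containing the hexamer), the C/EBP palindrome TTGCGCAA and the SMAD palindrome GTCTAGAC. They were in none of the 7 genes' windows and in 0.0396%, 0.183% and 0.213% of all windows. With exact matches that rare, their absence from 7 genes tells little, and inexact forms of these sites were not searched.

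The genes closest to Apod in their differences from wild type, by distance in the plane of those 2 log2 differences over the 3 arrays, were Clca3a2 at 0.57, Edil3 at 0.62 and Il11 at 0.72. Clca3a2 belongs to a family of chloride channel regulators and had log2 levels of 7.31, 8.27 and 7.37 in wild type, then Tgfbr2 cKO, then Tgfbr2/Smad4 cKO. Edil3, a secreted integrin ligand, had 6.58, 7.42 and 6.54. Il11, a cytokine of the IL-6 family, had 7.60, 8.39 and 7.03. Edil3 reached the filter through the Tgfbr2 cKO array alone. That these genes were highest in that array follows from how they were found.

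Apoe, the gene of the apolipoprotein that hands lipoproteins to receptors and accepts cholesterol from cells, spanned a narrower range. Its log2 levels were 8.99 in wild type, 9.14 in Tgfbr2 cKO and 8.61 in Tgfbr2/Smad4 cKO. The order of the arrays was that of Apod, but the widest gap, between the knockout lines, was 1.44-fold. Abca1, whose product pumps cholesterol and phospholipid onto lipid-poor apolipoproteins, ran the other way, with levels of 8.24, 8.19 and 8.67 in the same order of arrays. Its Tgfbr2/Smad4 cKO value was 1.35-fold above wild type, and 1516 of 11808 genes differed more in that comparison.

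Of the uptake genes, Lpl was lower in both knockout arrays and Cd36 was dim in every array. Lipoprotein lipase, the product of Lpl, frees fatty acids from circulating triglyceride. Lpl had a log2 level of 7.50 in wild type and exactly 7.13 in both knockout arrays, a difference of -0.37. It was the 1 gene of the 9 at or above the filter with its highest value in wild type. In the comparison of Tgfbr2 cKO with wild type 143 of 11808 genes differed more than Lpl, and in that of Tgfbr2/Smad4 cKO with wild type 1797 did, so the same difference stands further out among genes in the first. Cd36, the scavenger receptor that takes up long-chain fatty acids and oxidised lipoprotein, had levels of 5.09, 5.16 and 4.91 in wild type, then Tgfbr2 cKO, then Tgfbr2/Smad4 cKO. All 3 lay under the filter, so its small differences carry no direction here.

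The intracellular carriers and the droplet gene repeated the order of Apod with smaller steps. Fabp5, which encodes the fatty acid binding protein of epidermis and many other tissues, had log2 levels of 11.26 in wild type, 11.44 in Tgfbr2 cKO and 10.86 in Tgfbr2/Smad4 cKO, the mean of 2 probe sets. Those probe sets agreed, with differences of -0.61 and -0.55 between the knockout arrays and of 0.18 and 0.18 between Tgfbr2 cKO and wild type. RefSeq lists 1 pseudogene named after Fabp5, and probes may not separate it from the gene, so the level is uncertain to that extent. Fabp4, the adipocyte and macrophage form, had levels of 6.95, 7.05 and 6.83, close to the filter, and its largest difference was 1.16-fold.

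Plin2 encodes perilipin 2, the coat protein found on lipid droplets of most cell types and stabilised by stored lipid. Its log2 levels were 10.79 in wild type, 11.06 in Tgfbr2 cKO and 10.25 in Tgfbr2/Smad4 cKO. The Tgfbr2/Smad4 cKO value was 1.46-fold below wild type and 1.76-fold below Tgfbr2 cKO, where 611 of 11808 genes differed more. Between Tgfbr2 cKO and wild type the difference was 0.27, outside the central 95% of genes, which ran from -0.19 to 0.20. In the comparison of Tgfbr2/Smad4 cKO with wild type the central 95% ran from -0.92 to 0.69, and all 9 genes lay inside it. Between the knockout lines it ran from -0.94 to 0.69, and Apod was the 1 gene of the 9 outside.

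**Figure D2:**
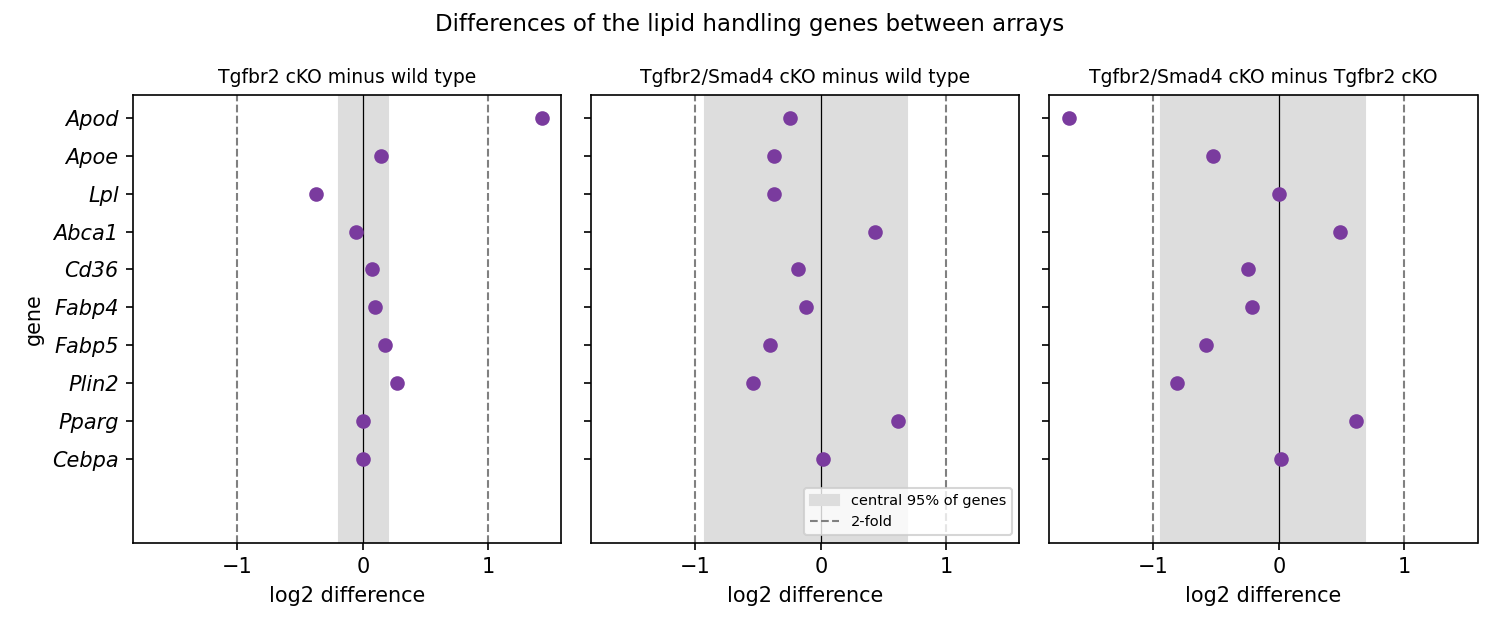
Log2 differences (horizontal axis) of the 10 genes (vertical axis) in the 3 comparisons, 1 panel each, with the central 95% of 11808 genes shaded and the 2-fold rule dashed. Apod lies at 1.43 in the left panel and at -1.68 in the right one, and Lpl at -0.37 and Plin2 at 0.27 also lie outside the narrow shaded range of the left panel.

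The adipogenic regulators were not lower in the knockout lines. Pparg, the gene of PPAR-gamma, had a log2 level of exactly 7.12 in wild type and in Tgfbr2 cKO and of 7.73 in Tgfbr2/Smad4 cKO, a 1.53-fold difference that 918 of 11808 genes exceeded. Cebpa, the gene of C/EBP-alpha, had levels of 6.68, 6.68 and 6.69, just above the filter and within 0.02 of each other. Of the 9 genes at or above the filter, 5 were highest in Tgfbr2 cKO and lowest in Tgfbr2/Smad4 cKO, namely Apod, Apoe, Fabp4, Fabp5 and Plin2, while Abca1, Pparg and Cebpa were highest in Tgfbr2/Smad4 cKO. The first order was held by 12.4% of the 11808 genes and by 33.2% of the 4419 whose 3 values all differ, as they do in 6 of the 9 genes. Nothing is read from that count, because the genes were chosen with these values known.

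By comparison, 5 of the 9 genes at or above the filter were higher in Tgfbr2 cKO than in wild type, 2 were lower and 2 were exactly equal, with a median difference of 0.10 on the log2 scale against 0 over the 11808 genes. Of those genes 25.8% were higher and 19.0% lower there. In Tgfbr2/Smad4 cKO against wild type 6 were lower and 3 higher, with a median of -0.25 against 0, and 32.2% of the 11808 genes were lower and 31.1% higher. In Tgfbr2/Smad4 cKO against Tgfbr2 cKO 5 were lower, 3 higher and 1 equal, with a median of -0.22 against 0, and 33.7% of the 11808 genes were lower and 30.2% higher. The comparisons share arrays in pairs.

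In 4 wider lists of lipid genes, 1 of 14, 0 of 9, 2 of 13 and 1 of 21 genes at or above the filter passed 2-fold in Tgfbr2/Smad4 cKO against wild type, where 3.40% of the 11808 genes did. The 1 of 14 was in lipoprotein and cholesterol efflux, and its difference exceeded that of every one of the 10 genes. This was Pltp, whose product transfers phospholipid between lipoproteins, with log2 levels of 9.57 in wild type, 9.49 in Tgfbr2 cKO and 11.82 in Tgfbr2/Smad4 cKO, a 4.74-fold difference from wild type. Pltp and Apoe are both known targets of the oxysterol receptor LXR, and they lay on opposite sides of wild type in that array. The part of LXR in their levels was not tested. Of 9 LXR target genes at or above the filter, Abca1, Apoe and Lpl left aside, 4 were higher, 1 lower and 4 exactly equal in the same comparison, and Pltp was the 1 past 2-fold. Over the 11808 genes 31.1% were higher, 32.2% lower and 36.7% exactly equal there. The 1 lower LXR target, the cholesterol pump gene Abcg1, had levels of 7.51, 7.51 and 7.11, opposite to Abca1. Lipa, the lysosomal acid lipase gene, had a difference of 0.74 from wild type and Scarb1, the HDL receptor gene, one of -0.73. Abcg1, Lipa and Scarb1 were picked after their values were seen.

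Among lipase regulators and lipoprotein receptors, 0 of 9 genes passed 2-fold in Tgfbr2/Smad4 cKO against wild type, where 3.40% of the 11808 genes did. Against Tgfbr2 cKO, where 2.25% of the 11808 genes were at least 2-fold lower, 1 of the 9 was. This was Angptl4, the gene of a secreted inhibitor of lipoprotein lipase, with log2 levels of 9.03, 9.22 and 8.10 in wild type, then Tgfbr2 cKO, then Tgfbr2/Smad4 cKO. Angptl4 held the array order of Plin2, as did 12.4% of the 11808 genes. Both are known PPAR targets, and the part of PPAR in their levels was not tested. Of 4 PPAR target genes at or above the filter, Plin2, Fabp4 and Lpl left aside, 2 were lower in Tgfbr2/Smad4 cKO against wild type, Angptl4 and Fabp3, and 2 were higher, Pdk4 by 0.31 and Cpt1a by 0.08 on the log2 scale. Over the 11808 genes 32.2% were lower and 31.1% higher there. Pdk4 and Cpt1a were named after their values were seen.

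Fatty acid binding, uptake and activation genes included 2 of 13 at least 2-fold lower in Tgfbr2/Smad4 cKO than in wild type, both of the Fabp family. In that comparison 2.18% of the 11808 genes were at least 2-fold lower and 1.22% higher. Fabp3, the muscle and heart form, had log2 levels of 9.38 in wild type, 9.56 in Tgfbr2 cKO and 8.24 in Tgfbr2/Smad4 cKO, and its 2 probe sets gave differences of -1.09 and -1.19 from wild type. Fabp7, the brain form, had levels of 7.69, 7.10 and 6.12, the last under the filter. The array order of Fabp3 was that of Fabp5 and Fabp4, with a wider gap. Of 21 lipid droplet and triglyceride genes, 1 was at least 2-fold higher, Mgll, whose product cleaves monoacylglycerol, with levels of 9.28, 9.11 and 10.53 against the lower Plin2 in the same array. The triglyceride synthesis genes Dgat1 and Dgat2 had differences of 0.16 and 0 from wild type. Those 2 genes were picked after their values were seen.

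**Figure D3:**
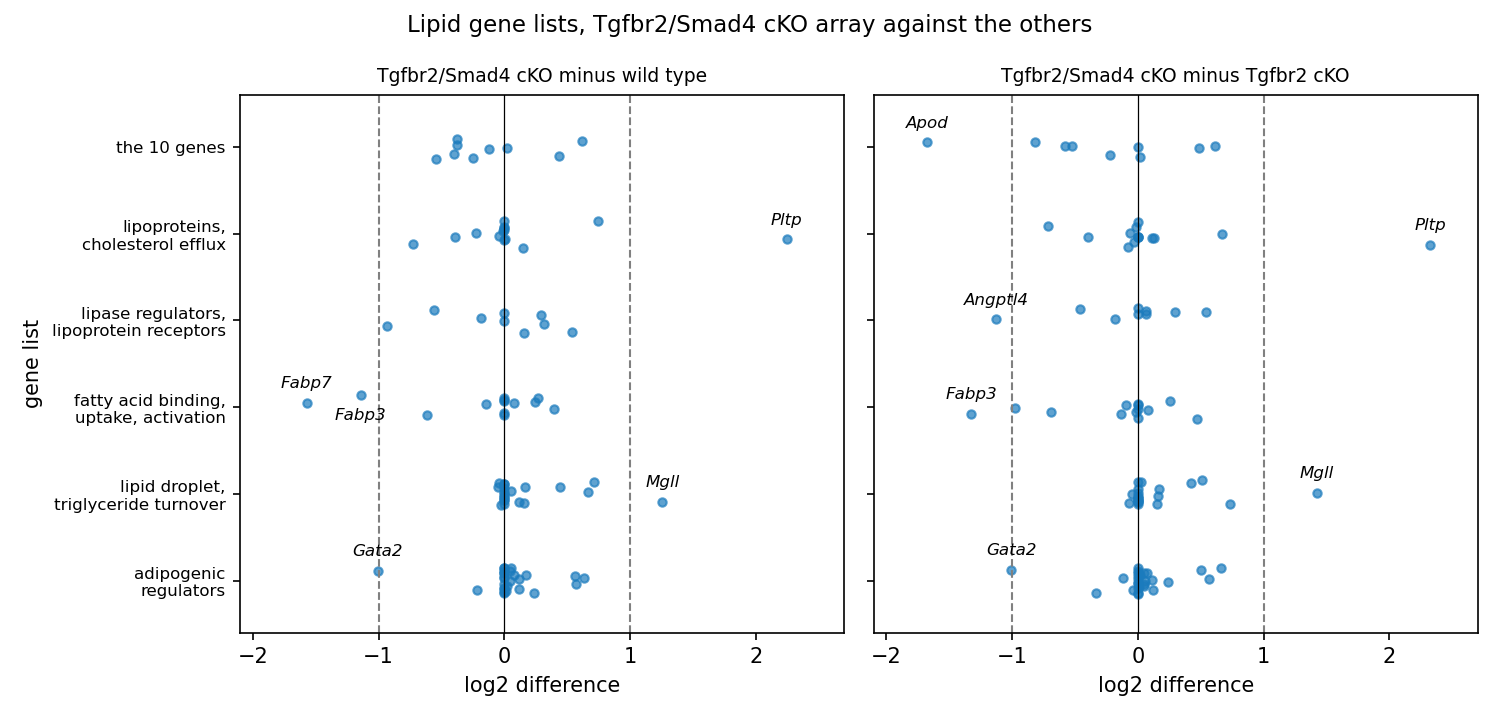
Log2 differences (horizontal axis) of genes at or above the filter in 6 lists (vertical axis, spread within a list for visibility), for Tgfbr2/Smad4 cKO minus wild type on the left and minus Tgfbr2 cKO on the right, with the 2-fold rule dashed. Pltp at 2.25 and 2.32 lies furthest to the right in both panels, and Apod at -1.68 is the 1 of the 10 genes past the rule, in the right panel.

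At or above the filter were 27 adipogenic transcription factors and inhibitors. In Tgfbr2/Smad4 cKO against wild type 13 were higher, 2 lower and 12 exactly equal, with a median of 0. Over the 11808 genes 31.1% were higher, 32.2% lower and 36.7% exactly equal there, and 3.40% passed 2-fold in either direction. Gata2, whose product holds preadipocytes back from differentiation, was the 1 of the 27 past 2-fold. Its log2 levels were 8.44, 8.44 and 7.43 in wild type, then Tgfbr2 cKO, then Tgfbr2/Smad4 cKO, a 2.01-fold difference. Of other genes whose products restrain adipogenesis, Zfp521 had a difference of 0.64, Dlk1, the preadipocyte factor gene, one of 0.57 and Gata3 one of 0.05, while Wnt10b, Klf2 and Klf3 were exactly equal in the 3 arrays. The early factor genes Cebpb and Cebpd, which act before Pparg, had differences of 0.02 and 0.24. Apart from Gata2, the genes named from this list were picked after their values were seen.

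Markers of mature adipocytes were dim or equal across the arrays. Of 14 with a value, 2 reached the filter, Plin1 at 6.69 and Lipe at 7.16, each exactly equal in the 3 arrays. Such ties were common over all genes. Adipoq, the adiponectin gene, had log2 levels of 4.73, 4.73 and 5.05 in wild type, then Tgfbr2 cKO, then Tgfbr2/Smad4 cKO, all under the filter. Lep, the leptin gene, had 4.88, 4.78 and 4.94, also under it. Adipoq and Lep were picked after their values were seen.

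Macrophages, endothelium and mesothelium also use several of these genes, so their markers were read beside them. Of 15 macrophage markers 6 reached the filter and 10 were exactly equal in the 3 arrays, among them Adgre1 at 4.87 and Ptprc at 5.23, both under the filter. Of the 6 that reached it, 4 were also exactly equal, namely Csf1r at 6.81, Cd14 at 7.66, Mertk at 6.85 and C1qa at 6.69. Lyz2, the lysozyme gene, had log2 levels of 8.70, 9.52 and 7.75, and Cd68 had 7.01, 7.51 and 6.76, the array order of Apod, Apoe, Fabp5 and Plin2. Adgre1, Ptprc, Csf1r, Cd14, Mertk, C1qa and Cd68 were picked after their values were seen. The summed signal of the list was 10.63, 10.95 and 10.39 on the log2 scale, in that order too. Lyz2 is the brightest gene in that sum, so the sum is not an observation separate from it. All 9 endothelial markers were exactly equal in the 3 arrays, and 2 of them, Cldn5 and Vwf, reached the filter. Exact ties were common over all genes, at 36.1% to 55.1% of the 11808 in each pair of arrays. Equality of these markers is therefore not read as a steady level. Of 9 mesothelial markers 7 reached the filter, and the summed signal of the 9 was 11.32, 10.93 and 10.02. Like Lpl it was highest in wild type. Lpl was exactly equal in both knockout arrays, as were 36.1% of the 11808 genes. At least 2-fold lower in Tgfbr2/Smad4 cKO than in wild type were 3 of the 7 markers, against 2.18% of the 11808 genes. Upk1b, a uroplakin gene, had the widest gap, with 9.70, 8.87 and 6.21, an 11.2-fold difference whose last value was under the filter. Upk3b had 8.79, 7.72 and 7.65, with both knockout arrays under wild type. Krt19, also an epithelial keratin, had 8.82, 9.25 and 6.93, in the order of Apod. Summed signals of the other lists were 9.27, 9.23 and 9.16 for 9 epithelial markers, of which 1, Dsp, reached the filter, and 9.67, 9.69 and 9.73 for 6 Schwann cell markers, of which 4 did, Foxd3 differing most with 6.73, 6.91 and 7.12 and Mbp next with 7.05, 7.05 and 7.07. In a culture read as a whole, fewer cells of a type and less RNA per cell cannot be told apart, and the part of macrophage or mesothelial cells in the values of Apod, Apoe, Plin2, Fabp5 and Lpl was not tested.

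**Figure D4:**
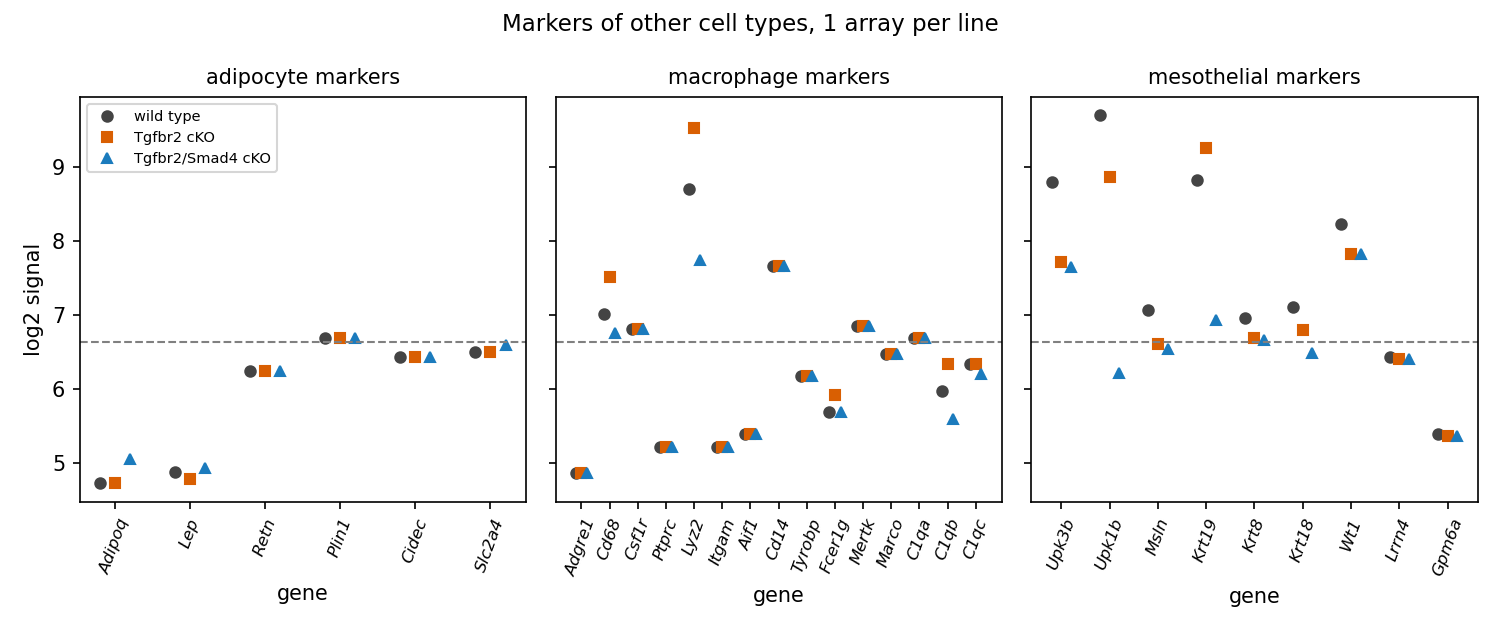
Log2 signal (vertical axis) of adipocyte, macrophage and mesothelial marker genes (horizontal axis) in the 3 arrays, 1 point per array, with the level filter dashed. Lyz2 at 9.52 and Cd68 at 7.51 are highest in Tgfbr2 cKO, while 10 of 15 macrophage markers coincide in the 3 arrays.

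Proliferation genes differed between the arrays, and Apod is a gene known to be raised in growth-arrested fibroblasts. Of 15 proliferation genes, 10 were at least 2-fold lower in Tgfbr2/Smad4 cKO than in wild type, with a median of -1.26. Of the 11808 genes 2.18% were at least 2-fold lower there. In Tgfbr2 cKO against wild type 13 of the 15 were lower, with a median of -0.14, and 0 passed 2-fold. Of the 11808 genes 19.0% were lower in that comparison. The 10 past 2-fold in Tgfbr2/Smad4 cKO were Mki67, Top2a, Ccna2, Cdk1, Bub1, Kif11, Plk1, Mcm5, Mcm6 and Rrm2. Bub1, a spindle checkpoint kinase gene, was 6.24-fold lower and Top2a 2.02-fold lower. The Tgfbr2/Smad4 cKO values of Bub1 at 6.54, Kif11 at 6.46 and Top2a at 5.81 were under the filter. Mki67, the source of the Ki-67 marker, had log2 levels of 9.65, 9.34 and 7.70 in wild type, then Tgfbr2 cKO, then Tgfbr2/Smad4 cKO. Apod was lowest in the array with the lowest Mki67 level, and its high value lay in an array where Mki67 was 0.31 below wild type. The part of proliferation in the level of Apod was not tested.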

How the data were processed

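RNA from 3 fibroblast lines was measured on Affymetrix Mouse Gene 1.0 ST arrays, which give transcript-level values, per the labels. The authors deposited 1 value for each of 35556 probe sets per array. The deposited values span 2.82 to 15.6 and were therefore taken as log2 signals. Their unit, software and normalization were not stated in the labels used here. Array medians differed by at most 0.00412, so no further normalization was applied. In each pair of arrays 44.1% to 56.1% of probe sets were identical in value, which can hide small differences.

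The platform annotation gave 21789 probe sets 1 symbol, 1621 several and 12146 none. Symbols were updated by gene identifier for 21698 and kept for 91, with RefSeq names of assembly GRCm38.p6, and probe sets were averaged per gene. The genes described and all lists were chosen with earlier results of these data known. Named genes were, from each list, those at least 2-fold different or else the 2 with the largest difference, plus the 3 genes nearest to each of the 10 genes past 2-fold. Other genes named from a list are marked as picked afterwards, apart from S100a4 and the sex-linked and knocked-out genes, named as checks of the labels. Groups came from sample titles. With 1 array per group nothing was tested between conditions, and differences were called at 2-fold. The calling step was tested on simulated data. Alternatives were quantile and cyclic loess normalization, an offset of 32, other size rules and filters, the brightest probe set and, chosen after seeing the data, only genes without equal values. Analyses used Python 3.11.15, numpy 2.4.6, pandas 2.3.3, matplotlib 3.10.9, R 4.3.3 and limma 3.58.1.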

Additional observations from a re-analysis of the deposited data

How the results depend on the processing

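No paired analysis was possible because each group has 1 array. No difference of the 10 genes changed sign under quantile or cyclic loess normalization, the offset of 32, the brightest probe set or, for the 7 genes it covers, the restriction to genes whose 3 values all differ. The offset moved 3 of 30 differences by over 0.1: Apod to 1.30 and -1.52, and Cd36 to -0.13. Both normalizations made 3 exactly equal pairs unequal, with no change above 0.0411.

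With a 1.5-fold rule, 44 of 11808 genes passed between Tgfbr2 cKO and wild type, of which 1 was Apod. Between Tgfbr2/Smad4 cKO and wild type 997 of 11808 passed, of which 1 was Pparg. Between the knockout lines 1064 of 11808 passed, of which 3 were Apod, Plin2 and Pparg. With a 3-fold rule 0, 151 and 161 passed. Of the 10 genes, 0 passed that rule in the first comparison, where Apod differed 2.69-fold. Between Tgfbr2/Smad4 cKO and wild type 0 of them passed it, and between the knockout lines 1 did, Apod. The filter at the 75th percentile gave 2, 251 and 269 in place of 4, 401 and 422, over fewer genes. The offset gave 2 in the first comparison. There the share of calls that were higher was 75% as deposited, 66.7% with quantile and 60% with cyclic loess normalization, 100% with the offset and with the 75th-percentile filter, 80% without a filter and 56.8% under the 1.5-fold rule, over 2 to 44 genes. Differences of dim genes such as Cd36, Fabp4 and Cebpa are limited by signal near background.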

Other observations

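The genes below were picked after their values were seen, so they are values only. Of 9 ABCA transporter genes at or above the filter, 2 were at least 2-fold higher in Tgfbr2/Smad4 cKO than in wild type. Of the 11808 genes 1.22% were. In the order wild type, single and double knockout, Abca8a had log2 levels of 5.35, 5.27 and 7.21 and Abca8b had 5.70, 5.58 and 7.25. Their neighbour in the family, Abca9, had 6.27, 6.27 and 7.03. All 3 passed the filter through the Tgfbr2/Smad4 cKO array, so the 2 of 9 follow in part from the filter. Of 7 genes named as apolipoproteins at or above the filter, Apod aside, Apol10b was the 1 past 2-fold, with 7.92, 8.04 and 6.91. Of the 11808 genes 2.18% were at least 2-fold lower in Tgfbr2/Smad4 cKO than in wild type.

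Ch25h, which makes a hydroxycholesterol that is a ligand of LXR, had log2 levels of 9.89 in wild type, 10.40 in Tgfbr2 cKO and 8.63 in Tgfbr2/Smad4 cKO. Cyp7b1, which hydroxylates and so removes such oxysterols, had 6.51, 7.32 and 8.01, the wild-type value under the filter. Cyp27a1, which makes another hydroxycholesterol, was exactly equal at 7.44 in the 3 arrays. Lbp, a lipopolysaccharide binding protein of the same family as Pltp, had 7.65, 7.46 and 9.72, like Pltp highest in Tgfbr2/Smad4 cKO. Mfsd2a, a lysophospholipid transporter, had 8.43, 8.17 and 7.34, and Pla2g7, a lipoprotein-associated phospholipase, had 7.49, 7.49 and 6.33, the last under the filter.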
